A study of Mus musculus with 47 samples.

Results

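In an expression table of mouse T-cell precursors, 8 entries were high in early DN2a cells, lower in the next stage, DN2b, and about as low in cells without Bcl11b as in their controls. They were chosen by group means of log2(FPKM + 1), where FPKM counts sequenced fragments relative to transcript length and library size. DN2a had to exceed DN2b by at least 1.5 and the knockout by at least 1, the knockout had to stand no more than 0.25 above its control, and DN2a had to average at least 5 FPKM. Symbols of the Gm-number and Rik type and 10 named genes were set aside, and none of those 10 met all 4 thresholds. The result was 8 of 17754 entries: the protein-coding genes Cox4i2, Clec10a, F2r, Mc5r and Serpinf1, and the processed pseudogenes Pgam1-ps2, Pgk1-rs7 and Actg-ps1. These values chose the members, so levels and group differences in the 19 libraries of the rule are a description with no test. Tests below use other libraries, or culture day within a genotype, which the group means of the rule do not hold.

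The series holds 47 RNA-seq libraries. All fetal liver cells came from E13.5 embryos and were grown on OP9 stroma carrying the Notch ligand Delta-like 1 (OP9-DL1) or 4 (OP9-DL4) with Flt3L and IL-7, each at 5 ng/ml unless IL-7 was reduced. DN2a (4 libraries) and DN2b (2 libraries) were sorted from control-genotype cultures on OP9-DL1 with no Cre listed. DN2a replicate 3 is titled day 8.5 and replicate 4 day 4.5, replicates 1 and 2 have no day in their titles, both DN2b libraries are titled day 8.5, and DN2b replicate 1 is titled DN3. For replicates 1 and 2 of both stages a second library was made after 12 h with GSI, an inhibitor of gamma-secretase that stops Notch receptor cleavage, at 1 uM where the title gives the dose. The knockout libraries were Bcl11b-floxed cells given a Cre retrovirus before differentiation, and the controls were B6 cells on the same protocol. Sample titles span 3 calendar years. In the final year there were 7 knockout and 6 control libraries on OP9-DL1 from days 9 to 12, and these, with DN2a and DN2b, are the libraries of the rule. The first and second years hold 7 more knockout libraries (6 on OP9-DL4, 1 on OP9-DL1) and 5 more controls (3 on OP9-DL4, 2 on OP9-DL1), all first-year libraries of both genotypes and knockout OP9-DL4 replicate 5 with reduced IL-7. The protocol gates floxed cells as DN2a, by high Kit, and controls as DN2b, by intermediate Kit, and floxed mice came from 2 stocks. Sort names in the titles differ from this protocol in the final year, where 1 knockout library is titled DN2a (replicate 1), 5 DN2 and 1 DN2b (replicate 6), and 3 controls are titled DN2 and 3 DN2b. All earlier-year knockout libraries are titled DN2a and all earlier-year controls DN2b. Single libraries, 1 per condition, were bone marrow precursors of tamoxifen-treated CreERT2 mice, floxed or wild type for Bcl11b, on OP9-DL4, thymocytes with LckCre, floxed ones sorted as DN2 and controls as DN3, and thymic DN3 cells with CreERT2, floxed or not, given tamoxifen and cultured on OP9-DL4. Further fetal liver cells, knockout and B6, were titled DN2b and carried an empty vector or, in the knockout, a Bcl11b vector.

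T-cell precursors pass through the double-negative stages DN2a and DN2b, between which they commit to the T lineage. Bcl11b, a zinc-finger transcription factor, is switched on at this step, and cells that lack it keep expressing many progenitor and innate lymphoid genes. The members stand outside that pattern by the way they were chosen.

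Bcl11b averaged 8.68 ± 6.88 FPKM (SD, n = 4) in DN2a, 61.0 ± 16.4 FPKM (n = 6) in the final-year controls and 21.6 ± 9.45 FPKM (n = 7) in the final-year knockout. In the earlier-year libraries it averaged 26.3 ± 2.41 FPKM (n = 7) in the knockout and 50.8 ± 24.0 FPKM (n = 5) in the controls, and the lowest control, OP9-DL1 replicate 1 of the first year at 16.9 FPKM, lay below every knockout library of these years. That difference was -0.94 on the log2 scale (SE 0.27) and did not pass in limma (adjusted p = 0.0576). Which exons were removed is not given, so transcript level is only a partial check of the labels. Column totals ran from 581205 to 1005744 FPKM, and the sequencing depth is unknown.

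The word silenced does not hold for most members. Clec10a came closest, from the table's floor of 0.1 FPKM to 2.12 FPKM in the final-year knockout (median 0.625 FPKM). Mc5r was lowered there, with a median of 1.35 FPKM and a highest value of 2.65 FPKM. F2r was lowered and still present in every library, and Cox4i2 and Serpinf1 ran from low values up to the DN2a level in individual knockout libraries. DN2a and DN2b titles are of the first and second years and the knockout libraries of the rule of the final year. From these libraries alone, the drop from DN2a to knockout cannot be told apart from the year. In knockout libraries of the first and second years, mostly on OP9-DL4, the coding members also stood below the lowest DN2a library. Their highest values were 11.8 FPKM for Cox4i2 (lowest DN2a 22.7), 0.897 for Clec10a (4.42) and 2.65 for Mc5r (4.08). F2r (14.9 against 15.8) and Serpinf1 (10.2 against 10.8) lay just under. The 3 pseudogenes reached the DN2a range in some of these libraries, and none of this was tested. In bulk samples, fewer cells expressing a gene and less RNA per cell cannot be told apart.

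Promoters are described for 2 members only, F2r on chromosome 13 and Serpinf1 on chromosome 11, from the RefSeq table (build GRCm38.p6). Those of the other members are not described, whether or not they had an entry, so these 2 do not stand for the set. The 2 promoters differ in base composition although both genes fell after DN2a. The 250 bases before each start site are given 5′ to 3′ on the gene's strand, chr13:95618467-95618716 and chr11:75422624-75422873, both minus strand. Capitals mark matches, on either strand, to AGATAA, recognised by Gata3 and related factors, or to TGTGGT, recognised by Runx factors.
F2r: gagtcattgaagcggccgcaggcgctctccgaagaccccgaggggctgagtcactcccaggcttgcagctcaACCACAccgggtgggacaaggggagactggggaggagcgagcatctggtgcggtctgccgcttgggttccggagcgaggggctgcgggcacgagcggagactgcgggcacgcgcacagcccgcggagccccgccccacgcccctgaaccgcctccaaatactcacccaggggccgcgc
Serpinf1: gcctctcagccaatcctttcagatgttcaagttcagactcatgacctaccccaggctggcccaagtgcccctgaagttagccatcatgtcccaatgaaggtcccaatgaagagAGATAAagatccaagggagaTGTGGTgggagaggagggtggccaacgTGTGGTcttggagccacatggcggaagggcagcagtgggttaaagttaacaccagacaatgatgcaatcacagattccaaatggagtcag
The F2r window was 70.8% G or C with 24 CG dinucleotides, and the Serpinf1 window was 51.6% G or C with 2, against a median of 6 CG dinucleotides over 32851 promoters. F2r held 1 RUNX match, and Serpinf1 held 2 RUNX matches and 1 GATA match. Of all promoters, 14.0% held the RUNX letters and 9.99% the GATA letters. GAGGAAGT (PU.1), TTGCNNAA (C/EBP) and CAGCTG (E-box) were in neither window, and were in 2.44%, 9.56% and 13.001% of all promoters. A match is a description of these letters and not a site.

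Cox4i2 encodes an alternative isoform of subunit 4 of cytochrome c oxidase, the terminal enzyme of the mitochondrial respiratory chain. It had the highest DN2a level of the coding members, at 43.7, 39.5, 22.7 and 40.6 FPKM in replicates 1 to 4. DN2b libraries held 2.97 and 3.36 FPKM. All DN2a libraries lay above both DN2b libraries, a difference of 3.13 on the log2 scale. The final-year knockout libraries ran from 2.00 FPKM through a median of 6.62 to 32.4 FPKM, and the controls from 1.68 through 8.36 to 16.4 FPKM. Of the 6 controls, 5 lay inside the knockout range. Knockout replicate 2, at 32.4 FPKM, was the only one of 41 libraries outside DN2a and DN2a with GSI that reached the lowest DN2a value.

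Clec10a, a galactose-binding C-type lectin known from macrophages and dendritic cells, was the member most restricted to DN2a. DN2a libraries held 6.50, 6.76, 4.42 and 6.44 FPKM and DN2b libraries 0.571 and 0.753 FPKM. In the final-year knockout it ran from the floor through a median of 0.625 to 2.12 FPKM, and in the controls from 0.351 through 0.697 to 1.00 FPKM. None of the 41 other libraries reached the lowest DN2a value. Because it is a myeloid gene, the 9 measured genes of a 12-gene macrophage and dendritic list were summed in each library, at 26.2 to 31.7 FPKM in DN2a, 18.4 to 21.6 in DN2b, 22.3 to 30.3 in the final-year knockout and 14.1 to 21.0 in the final-year controls. None of the 9 was at the floor in all libraries of any of these groups. The knockout overlapped DN2a in this sum. A lower Clec10a level in the knockout than in DN2a was a condition of membership, so the sum cannot be weighed against it. The part of such cells in the Clec10a level was not tested. A list of 13 neutrophil granule and early myeloid genes, all measured, summed to 74.6 to 112.4 FPKM in DN2a, 11.3 to 24.5 in DN2b, 14.1 to 74.5 (median 30.9) in the final-year knockout and 8.55 to 22.6 in the final-year controls. None of the 13 was at the floor in all libraries of any of these groups. The highest knockout sum, in replicate 2, lay just under the lowest DN2a sum, and the part of this list in the member levels was not tested.

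F2r encodes the thrombin receptor, protease-activated receptor 1, which couples to G proteins. DN2a libraries held 17.1, 19.8, 26.1 and 15.8 FPKM and DN2b libraries 2.76 and 6.05 FPKM. The final-year knockout ran from 3.54 through a median of 7.63 to 12.7 FPKM and the controls from 6.15 through 8.33 to 11.4 FPKM. The knockout and control means, 8.25 ± 3.12 (SD, n = 7) and 8.44 ± 2.30 FPKM (n = 6), differed by far less than either spread, and both groups lay below all DN2a libraries. Both means also stood above the DN2b mean of 4.41 FPKM.

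Mc5r encodes melanocortin receptor 5, another G protein-coupled receptor. DN2a libraries held 5.57, 6.79, 4.08 and 4.35 FPKM and DN2b libraries 0.412 and 1.10 FPKM. The final-year knockout ran from the floor through a median of 1.35 to 2.65 FPKM and the controls from 0.664 through 1.14 to 2.14 FPKM. No library of either group reached the DN2a range.

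Serpinf1 encodes pigment epithelium-derived factor, a secreted serpin that does not inhibit proteases and limits blood vessel growth. DN2a libraries held 11.5, 13.496, 13.525 and 10.8 FPKM and DN2b libraries 4.43 and 2.78 FPKM. The final-year knockout ran from 1.14 through a median of 6.92 to 13.2 FPKM and the controls from 2.31 through 4.14 to 8.67 FPKM. Knockout replicate 2 was again the only library of 41 inside the DN2a range, and the groups overlapped. Serpinf1 met each of the 3 difference thresholds by the smallest margin of all members, with 1.55 for DN2a over DN2b, 0.245 for knockout over control and 1.09 for DN2a over knockout. With each of the 19 libraries left out in turn, Serpinf1 dropped out of the rule in 6 cases (1 DN2b, 2 knockout and 3 control libraries), Cox4i2 in 6 (3 knockout and 3 control libraries), Actg-ps1 in 2 (DN2a replicates 1 and 2) and Mc5r in 1 (DN2a replicate 2). Clec10a, F2r, Pgam1-ps2 and Pgk1-rs7 dropped out in 0 of the 19. For Pgam1-ps2 and Pgk1-rs7 most final-year values are equal between libraries (below), so leaving out 1 such library could hardly move their means.

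Just outside those thresholds, with the other thresholds met, stood Rsc1a1 (1.47) for DN2a over DN2b, Rab38 (0.29) for knockout over control and Rps25-ps1 (0.92) for DN2a over knockout. No entry missed on the DN2a level alone. The adhesion receptor gene Cd44 missed the knockout threshold by nearly the same margin as Rab38 (0.295).

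**Figure D1:**
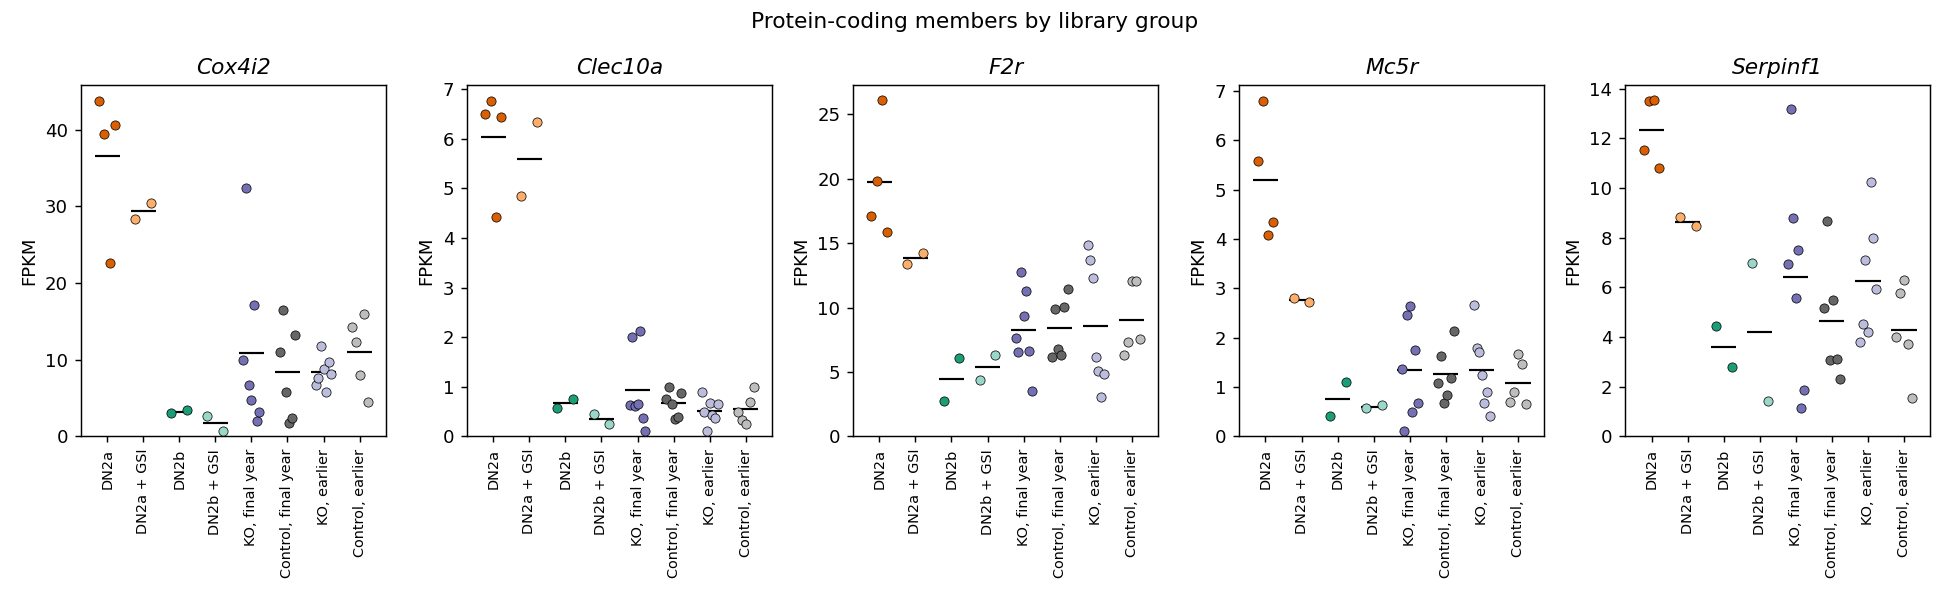
FPKM (vertical axis) of the 5 protein-coding members in each library (points), with horizontal bars at group means, for DN2a and DN2b without and with GSI and for knockout (KO) and control libraries of the final year and of the earlier years. DN2a points stand highest in each panel, Clec10a in DN2a, with or without GSI, lies above every library of the other groups, and 1 final-year knockout library reaches the DN2a range in Cox4i2 (32.4 FPKM) and Serpinf1 (13.2 FPKM).

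The remaining 3 members are processed pseudogenes, copies of the spliced transcript of another gene, and their values are uncertain. Over GENCODE M21 transcripts, Pgam1-ps2 matched the glycolytic gene Pgam1 at 765 of 765 bases, Pgk1-rs7 matched the glycolytic gene Pgk1 at 1255 of 1255 bases, and Actg-ps1 matched the actin gene Actg1 at 1089 of 1108 aligned bases (98.29%). Short reads from the first pair cannot be assigned to the copy or the parent by sequence, and Pgk1-rs7 had the same value as a second entry, Gm5537, in 47 of 47 libraries. Pgam1-ps2 held 100.2, 35.2, 25.02 and 53.7 FPKM in DN2a and 1.53 and 0.1 FPKM in DN2b. It stood at 12.7 to 17.1 FPKM in the final-year knockout and 10.8 to 22.05 FPKM in the final-year controls. Knockout and control overlapped, and both lay between DN2b and DN2a.

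Pgk1-rs7 held 51.5, 19.2, 10.3 and 28.9 FPKM in DN2a, 0.704 and 0.1 FPKM in DN2b, 6.23 to 7.50 FPKM in the final-year knockout and 5.59 to 10.1 FPKM in the final-year controls. Actg-ps1 held 8.03, 7.68, 3.14 and 2.48 FPKM in DN2a, 0.1 and 1.02 FPKM in DN2b, 0.638 to 1.88 FPKM in the knockout and 0.603 to 1.43 FPKM in the controls. The mean of the parent genes was also higher in DN2a. Pgam1 averaged 263 ± 37.6 FPKM (SD, n = 4) in DN2a and 165.9 ± 35.4 FPKM (n = 2) in DN2b, Pgk1 averaged 552 ± 156 and 356 ± 121 FPKM, and Actg1 averaged 1207 ± 80.7 and 636 ± 182 FPKM.

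Many pseudogene values were equal between libraries to 9 decimals. Pgam1-ps2 shared a value above the floor in 23 of 47 libraries, in 8 sets of up to 5 libraries, and Pgk1-rs7 did so in 26 libraries in 9 sets. For both, 6 of 7 knockout and 5 of 6 control libraries of the final year shared their value with another library, and no set mixed knockout with control titles. In the final-year fetal liver libraries the equal values went with the genotype and sort name in the titles. Sort names were mixed in a further set, at 15.6 FPKM for Pgam1-ps2 and 7.50 FPKM for Pgk1-rs7. It joined knockout replicate 6 and the knockout libraries with a vector, all titled DN2b, with the cultured thymic DN3 knockout library. Pgam1-ps2 stood at 12.7 FPKM in the 5 knockout libraries titled DN2 and at 10.8 FPKM in the 3 controls titled DN2. It stood at 14.7 FPKM in 3 controls titled DN2b, the empty-vector one included, while control replicate 1, also titled DN2b, held 22.05 FPKM. Such values carry no spread between those libraries. The table was adjusted for batches that no label names, and the part of that adjustment in the equal values was not tested. Of all 17754 entries, 4895 shared a value above the floor between libraries, and 239 did so in 25 or more libraries. Among 8752 genes with at least 5 FPKM in DN2a, 4 shared values in 25 or more libraries (0.046%). Pgk1-rs7 meets that cut and Pgam1-ps2, at 23 libraries, does not. Actg-ps1 shared values in 8 libraries, Mc5r in 2, and Cox4i2, Clec10a, F2r and Serpinf1 in 0.

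The thresholds as a whole selected pseudogenes. Of 34 entries that met all 4, 26 had Gm or Rik symbols, and 26 of the 31 with a GENCODE class were pseudogenes (83.9%), against 12.25% of all classed entries. Among the 124 DN2a-high entries with allowed symbols, 108 stood more than 0.25 higher in the knockout than in control, and all of those 108 were protein-coding. The 5 coding members are therefore a small remainder of the DN2a-high coding genes.

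**Figure D2:**
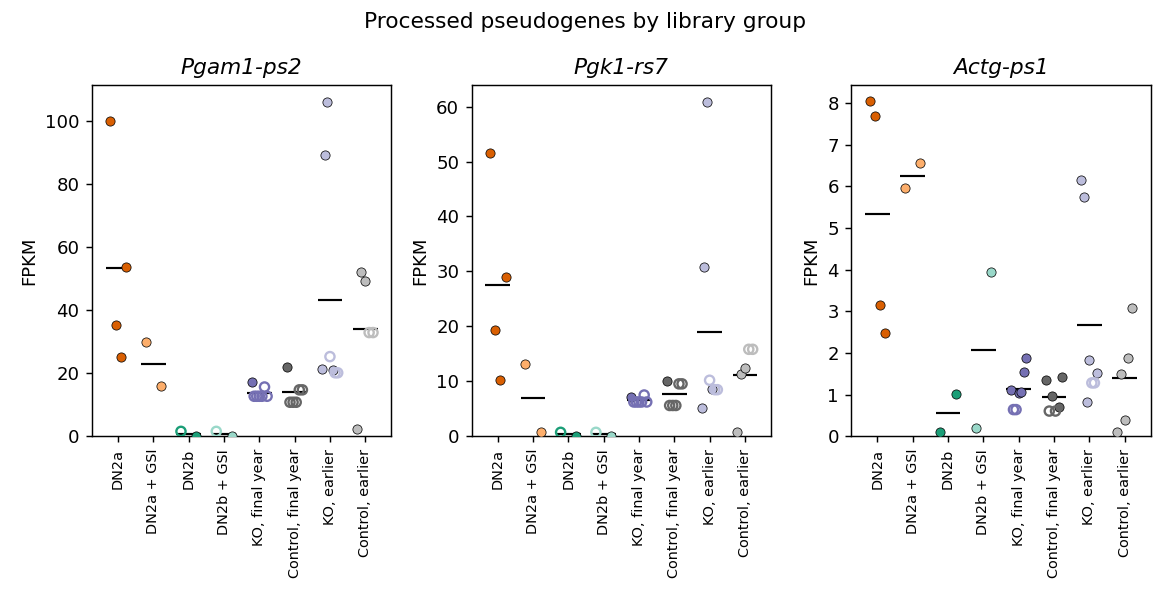
FPKM (vertical axis) of the 3 pseudogene members in each library, with horizontal bars at group means. Open points mark values above the floor that are equal to 9 decimals in at least 1 other library, which for Pgam1-ps2 and Pgk1-rs7 are 6 of 7 knockout and 5 of 6 control libraries of the final year.

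The knockout comparison was repeated in the 12 earlier-year libraries that the rule did not use, 7 knockout against 5 control, with stroma and IL-7 as covariates. Again no member separated knockout from control. All 7 knockout libraries are titled DN2a and all 5 controls DN2b, so genotype and sorted stage cannot be told apart here. Of 12710 genes tested with limma, 954 had an adjusted p under 0.05 (7.51%, with 639 or 5.03% higher and 315 or 2.48% lower in the knockout, and 2964 at an unadjusted p under 0.05), and of 7 members tested 0 were called, with 0 at an unadjusted p under 0.05. With the 4 pairs matched for title date, stroma and IL-7 as a replicate block 22 genes were called, and without control OP9-DL4 replicate 1 363, in each case with 0 members. The median difference was 0.05 over the 7 members and 0.08 over all genes.

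Cox4i2 held 5.81 to 11.8 FPKM (median 8.13) in these knockout libraries and 4.41 to 16.0 FPKM (median 12.3) in the controls. The knockout values lay inside the control range, with a difference of -0.24 on the log2 scale (SE 0.28, 95% interval -0.86 to 0.37, limma adjusted p = 0.632). Unlike in the final-year set, no knockout library here approached the DN2a level. Clec10a, at 0.1 to 0.897 FPKM in the knockout and 0.255 to 0.986 FPKM in the controls, was under the filter of 1 FPKM and was not tested. Without the filter its difference was 0.03 (95% interval -0.24 to 0.30).

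F2r held 3.07 to 14.9 FPKM (median 6.15) in the knockout and 6.28 to 12.1 FPKM (median 7.53) in the controls, and the knockout range enclosed the control range. Its difference was -0.22 (SE 0.36, 95% interval -0.9999 to 0.56). The 3 first-year knockout libraries held 12.3 to 14.9 FPKM and the 4 of the second year held 3.07 to 6.15 FPKM, and the difference was 0.56 within the first year, all of reduced IL-7, and -0.74 within the second (limma adjusted p = 0.163). Mc5r held 0.413 to 2.65 FPKM in the knockout and 0.653 to 1.67 FPKM in the controls, with a difference of 0.13 (SE 0.23).

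Serpinf1 held 3.79 to 10.2 FPKM (median 5.92) in the knockout and 1.53 to 6.27 FPKM (median 4.01) in the controls. These ranges overlapped, and the difference of 0.44 (SE 0.30, 95% interval -0.21 to 1.08, limma adjusted p = 0.402) did not pass. Actg-ps1 differed by 0.66 (SE 0.44), Pgk1-rs7 by 0.05 (SE 0.55) and Pgam1-ps2 by less than 0.01 (SE 0.62), the last 2 with intervals wider than 1 on either side. Pgk1-rs7 and Pgam1-ps2 each held equal values in knockout OP9-DL4 replicates 5 and 6 and in control OP9-DL4 replicates 2 and 3. Their SEs thus do not measure a spread between those libraries. All 7 intervals hold 0, and 4 of them also hold a difference of 1, so they do not show equal levels.

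Lists of other genes were read in the same libraries. Of 25 tested progenitor regulators 7 were higher in the knockout and 1 lower, including Kit, the receptor used in the sort, with a difference of 1.33 (SE 0.34, limma adjusted p = 0.0348). Of 10 tested NK and innate lymphoid genes 6 were higher and 0 lower. The macrophage and dendritic list had 0 of 6 called, with a median of 0.19, and the stromal list 0 of 6, with a median of 0.29. Calls in the progenitor list thus went both ways, and the innate lymphoid calls were all higher in the knockout.

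The knockout difference was also tested for a dependence on IL-7, which goes with the year of the titles. In limma 49 of 12710 genes were called (0.386%, with 0.37% higher and 0.0157% lower) and 0 of 7 members, and with title date as a replicate block 87 genes were called, again with 0 members. Actg-ps1 had an interaction of 2.02 (unadjusted p = 0.0134, adjusted p = 0.502 in limma) and Serpinf1 one of -1.22 (unadjusted p = 0.0323, adjusted p = 0.662). The median was 0.95 over the 7 members and 0.05 over all genes. The largest terms were of the pseudogenes, with 1.47 for Pgk1-rs7 and 1.03 for Pgam1-ps2 after Actg-ps1. F2r had 0.95, Mc5r 0.62 and Cox4i2 -0.12, so the members did not share 1 direction. Pgk1-rs7 and Pgam1-ps2 held equal values in knockout OP9-DL4 replicates 5 and 6, which differ in IL-7. The stromal list, whose part in the Serpinf1 value was not tested, had a median of -1.87 with 0 of 6 called.

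The step from DN2a to DN2b could be read again in 4 libraries treated with GSI. They share title dates with 4 of the rule's libraries and may come from the same cultures, so they are not independent of the choice of members. Cox4i2 held 28.3 and 30.5 FPKM in DN2a with GSI and 2.67 and 0.663 FPKM in DN2b with GSI. Clec10a held 4.85 and 6.33 FPKM against 0.452 and 0.245 FPKM. In both, each DN2a library stood above both DN2b libraries.

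F2r held 13.4 and 14.2 FPKM against 4.40 and 6.27 FPKM, and Mc5r 2.81 and 2.73 FPKM against 0.562 and 0.636 FPKM. Serpinf1 held 8.84 and 8.45 FPKM against 6.99 and 1.41 FPKM, the smallest separation of the coding members. Every coding member kept the order of the untreated libraries.

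In limma 45 of 13047 genes were called (0.345%, with 0.176% higher and 0.169% lower in DN2a, and 3067 at an unadjusted p under 0.05) and 0 of 7 members. Pgam1-ps2 held the same 2 values in DN2b with GSI as in the DN2b libraries of the rule, 1.53 FPKM and the floor, so its difference is not given. The differences on the log2 scale were 3.62 for Cox4i2 (SE 0.41, limma adjusted p = 0.0580) and 2.28 for Clec10a (SE 0.26, adjusted p = 0.0570). With robust variances 72 genes were called, and these 2 were among them (limma adjusted p = 0.0453 and 0.0435). With title period as a replicate block 1 gene was called. F2r differed by 1.24 (SE 0.25), Mc5r by 1.24 (SE 0.22), Actg-ps1 by 1.58 (SE 0.67) and Serpinf1 by 1.14 (SE 0.58), and Pgk1-rs7 was under the filter. The median was 1.58 over the 7 members, Pgam1-ps2 included, and -0.11 over all genes. Members were chosen for this step in libraries that include the untreated ones of the same dates. These medians are thus a description and test nothing.

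GSI libraries were compared with the untreated libraries of the same dates, with stage as a covariate. No gene of 12783 was called in limma (0%, with 297 at an unadjusted p under 0.05), and with date pairs as a replicate block again 0 (1323 at an unadjusted p under 0.05). The untreated libraries belong to the rule, and a high DN2a value was a condition of membership, so members are given here as a description. Cox4i2 went from 43.7 to 28.3 and from 39.5 to 30.5 FPKM in DN2a, and from 2.97 to 2.67 and from 3.36 to 0.663 FPKM in DN2b. All 4 pairs were lower with GSI, a difference of -0.62 on the log2 scale.

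Mc5r went from 5.57 to 2.81 and from 6.79 to 2.73 FPKM in DN2a, and from 0.412 to 0.562 and from 1.10 to 0.636 FPKM in DN2b. It was lower in 3 of 4 pairs, with a difference of -0.52 on the log2 scale. Whether the GSI difference depends on stage was not tested.

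**Figure D3:**
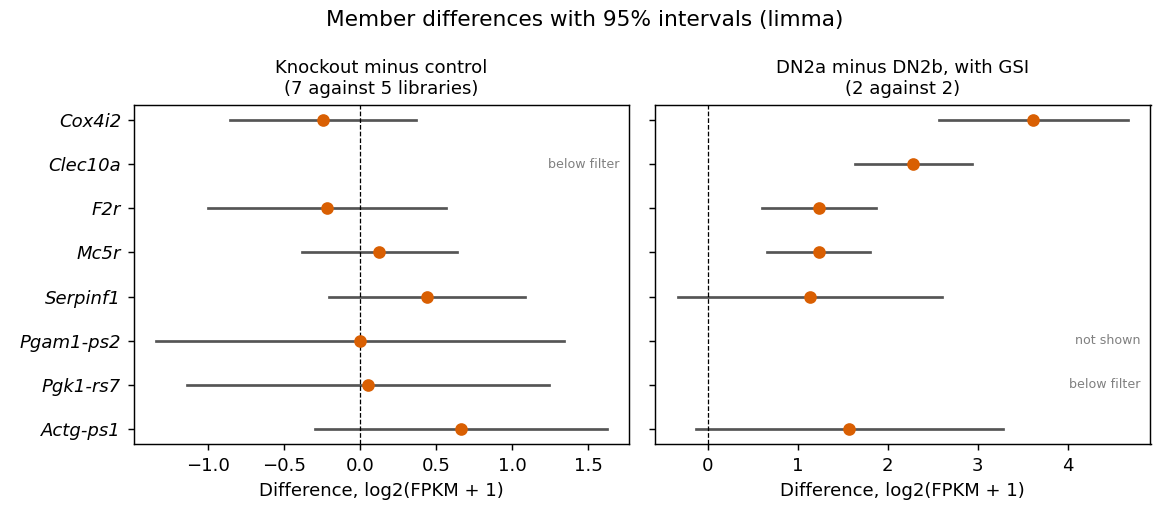
Differences of the members on the log2(FPKM + 1) scale (horizontal axis) with 95% intervals from limma, for knockout minus control in the earlier-year libraries and DN2a minus DN2b with GSI, where Pgam1-ps2 is left out because its DN2b values equal those of the rule. The horizontal scales differ between panels. In the first panel all 7 intervals hold 0, and in the second Cox4i2 (3.62) and Clec10a (2.28) lie farthest from 0.

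In most final-year libraries Cox4i2 and Serpinf1 were lower on later culture days, which the rule did not use. In the knockout, Cox4i2 held 9.97, 32.4 and 17.2 FPKM on day 9, 6.62 FPKM on day 10 and 4.67, 2.00 and 3.21 FPKM on day 12. In the controls it held 16.4 FPKM on day 9, 10.97 on day 9.5, 5.75 on day 10, and 1.68, 2.34 and 13.2 on day 12. Knockout values of day 12 lay below all earlier knockout values, and in the controls replicate 6 on day 12 was the exception. The July culture, titled DN2 on each day, fell in the knockout from 32.4 to 6.62 to 4.67 FPKM. In the control, also titled DN2 on each day, it fell from 16.4 to 5.75 to 1.68 FPKM. The August knockout culture fell from 17.2 to 2.00 FPKM between days 9 and 12. Its title changes from DN2 to DN2b, so day and sort name cannot be told apart there. Knockout replicate 1, on day 9, is titled DN2a. Control replicate 1, on day 9.5, and control replicates 5 and 6, on day 12, are titled DN2b.

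Over both genotypes the slope of Cox4i2 was -0.62 per day on the log2 scale (SE 0.13, 95% interval -0.91 to -0.34). It did not pass over all genes in limma (adjusted p = 0.145), where 0 of 12710 genes were called (0%, with 2628 at an unadjusted p under 0.05). With culture as a replicate block, so that the slope comes from cultures sampled more than once, it was -0.83 (SE 0.11, limma adjusted p = 0.0268), 1 of 145 genes called. Without control replicate 6 it was -0.74 (limma adjusted p = 0.00613), 1 of 13 called. The August knockout culture, with its change of sort name, enters all of these fits. Sort name was not a term, and its part in the culture-day slopes was not tested.

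Serpinf1 held 6.92, 13.2 and 7.49 FPKM on day 9, 8.78 on day 10 and 5.55, 1.14 and 1.85 on day 12 in the knockout. In the controls it held 8.67 FPKM on day 9, 5.16 on day 9.5, 3.07 on day 10 and 5.48, 3.13 and 2.31 on day 12. All knockout values of day 12 lay below all earlier ones, and the control ranges overlapped. The slope was -0.41 per day (SE 0.10, 95% interval -0.63 to -0.19, limma adjusted p = 0.154) and -0.38 with the culture block (limma adjusted p = 0.0966).

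Serpinf1 is also made by stromal cells, so 8 measured genes of a 9-gene stromal list were summed. The sum was 41.3, 49.1 and 37.2 FPKM on day 9, 85.98 on day 10 and 34.7, 41.9 and 26.2 on day 12 in the knockout. In the controls the sum was 56.4 FPKM on day 9, 60.4 on day 9.5, 46.5 on day 10 and 69.98, 66.3 and 31.5 on day 12. The list had 0 of 7 tested genes called for culture day, with a median slope of -0.28, and its part in the Serpinf1 values was not tested. The sum was 31.7 to 46.7 FPKM in DN2a and 50.8 to 54.1 FPKM in DN2b, with the matrix genes Dcn and Thbs1 at the floor in all libraries of both.

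Clec10a held 0.625, 2.00 and 2.12 FPKM on day 9, 0.607 on day 10 and 0.652, 0.368 and 0.1 on day 12 in the knockout. The 2 highest knockout values were thus of day 9. It was under the filter, and without the filter its slope was -0.21 per day (SE 0.06, limma adjusted p = 0.184). F2r and Mc5r had slopes of -0.06 (SE 0.09) and 0.13 (SE 0.09) per day, and the 3 pseudogenes had slopes between -0.01 and 0.07. Most values of Pgam1-ps2 and Pgk1-rs7 in this fit were equal between libraries, also across days, so their slopes cannot measure a change with day.

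No dependence of the slope on genotype passed. The interaction was called in limma for 0 of 12710 genes (0%, with 135 at an unadjusted p under 0.05), and was -0.20 for Cox4i2 (95% interval -0.78 to 0.38) and -0.28 for Serpinf1 (95% interval -0.72 to 0.16). Within the knockout the slopes were -0.71 and -0.52, and within the controls -0.51 and -0.25. Knockout replicate 2, the day 9 library with the highest Cox4i2 and Serpinf1, also had the lowest Bcl11b of the final-year knockout, 8.77 FPKM, and the lowest Kit, 24.2 FPKM, under the lowest final-year control (25.5 FPKM), and the part of these in the slopes was not tested.

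**Figure D4:**
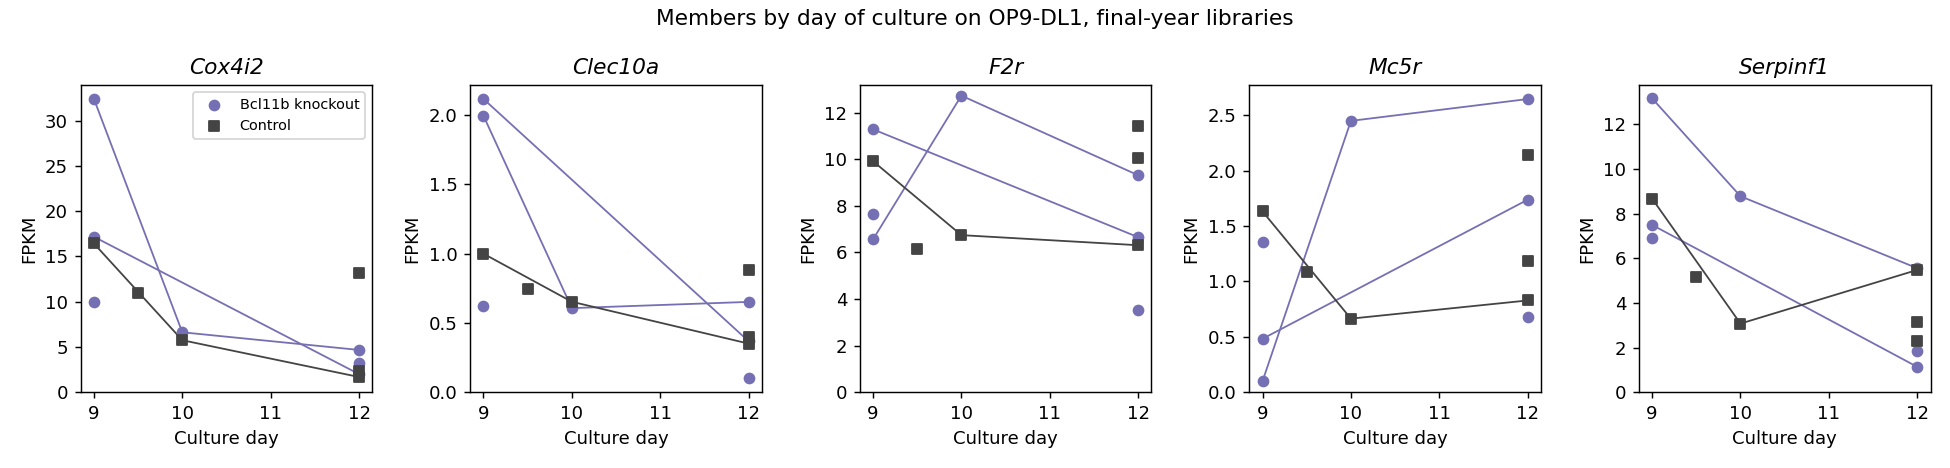
FPKM (vertical axis) of the coding members against culture day in the final-year OP9-DL1 libraries, knockout as circles and control as squares. Lines join libraries of 1 culture sampled on several days. Cox4i2 goes down along each line, with control replicate 6 on day 12 (13.2 FPKM) off the pattern.

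Single libraries gave the members in other settings, with no replicate check. In bone marrow precursors on OP9-DL4, the library labelled knockout had lower levels than its control in all 5 coding members, while Bcl11b did not separate the pair (45.04 and 44.9 FPKM), so the label is not borne out by the transcript. Cox4i2 held 2.52 against 9.30 FPKM, F2r 10.1 against 19.2 FPKM, Mc5r 1.06 against 4.14 FPKM, Serpinf1 2.21 against 9.66 FPKM and Clec10a 0.345 against 0.988 FPKM. The control reached the DN2a range in F2r and Mc5r.

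In thymocytes with LckCre, which acts in developing T cells, Cox4i2 held 7.30 FPKM in the knockout, sorted as DN2, and 0.350 FPKM in the control, sorted as DN3, so genotype and stage cannot be told apart. Serpinf1 held 3.09 against 1.21 FPKM and F2r 4.06 against 4.52 FPKM in the same pair. In thymic DN3 cells given tamoxifen and cultured for 4 days, Cox4i2 held 3.56 FPKM in the knockout and was at the floor in the control. F2r held 7.13 against 2.65 FPKM and Serpinf1 5.89 against 3.79 FPKM there, and Clec10a and Mc5r stood under 0.5 FPKM in both.

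Among cells transduced with an empty vector 36 h before harvest on day 12, F2r held 21.9 FPKM in the knockout, inside the DN2a range, and 12.6 FPKM in the control. The knockout with a Bcl11b vector held 15.6 FPKM of F2r and 105.4 FPKM of Bcl11b, against 24.7 FPKM of Bcl11b with the empty vector. Mc5r held 0.786 FPKM with the Bcl11b vector and 2.62 FPKM with the empty vector. Cox4i2 held 3.57 and 4.34 FPKM and Serpinf1 3.89 and 4.88 FPKM in the same pair, and Pgam1-ps2 and Pgk1-rs7 had equal values in both.

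**Figure D5:**
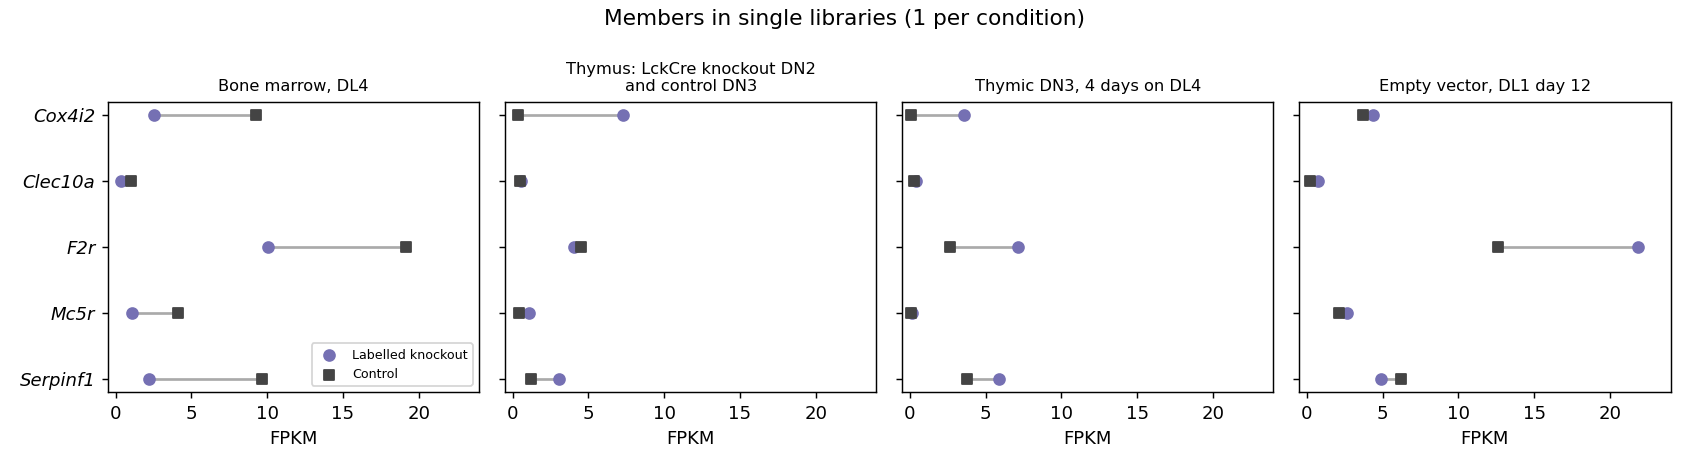
FPKM (horizontal axis) of the coding members in pairs of single libraries, those labelled knockout as circles and control as squares, with 1 library per condition. In bone marrow all 5 members are lower in the library labelled knockout, where Bcl11b was 45.04 against 44.9 FPKM, and in the thymic pairs Cox4i2 is higher in the knockout (7.30 against 0.350 FPKM, and 3.56 FPKM against the floor).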

How the data were processed

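Per the labels' protocols, polyA RNA was fragmented, converted by random priming and sequenced, with no step that marks strand. The authors deposited 1 table of FPKM values, which its name describes as merged and ComBat-adjusted for batch, with a floor of 0.1, and the genome build was mm9, per the submitters' processing notes. Aligner, quantifier and ComBat batches are not stated in the labels or the table, and the adjustment could have moved differences in either direction. A further 16 columns of per-sample values were not used.

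Groups came from titles and characteristics. Values were analysed as log2(FPKM + 1), which understates differences of low genes, in limma 3.58.1 (R 4.3.3) with a mean-variance trend and Benjamini-Hochberg adjustment over all genes that reached 1 FPKM in as many libraries as the smaller group. Calls are at an adjusted p under 0.05. Separate cultures or embryos are not named for every library, so p-values measure the spread between these libraries, some of which are 1 culture on several days. Simulated data had 200 genes changed by 2 on the log2 scale, for culture day over the whole range of days. The fits recovered 95% for the knockout, 47.5% for DN2a against DN2b with GSI, 91% for GSI and 98.5% for culture day. False calls were 7, 2, 9 and 7 in the same order. Simulated libraries were independent of each other, and smaller changes were not simulated. Pairs came from title dates: deviations correlated between 0.647 and 0.7 in the GSI pairs and between -0.181 and -0.063 in the knockout pairs. Promoter sequences are RefSeq entries (GRCm38.p6), and gene classes and pseudogene alignments used GENCODE M21 (16481 identifiers matched) with Biopython 1.88. All members are named, as the rule for 30 or fewer asks, besides genes next to the thresholds. The members and lists were chosen with earlier results of these data known. Alternatives were another pseudocount, no filter, quantile normalization, robust variances, subsets, replicate blocks and each library left out.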

Additional observations from a re-analysis of the deposited data

Results flagged for a closer look

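Within groups of 4 to 10 libraries, 3 of 32 sets of member values had 1 library far from the others, where chance gives about 1 in 20. In DN2a, replicate 3, titled day 8.5, stood below the other 3 libraries in Cox4i2 (22.66 FPKM) and in Clec10a (4.416 FPKM). In the OP9-DL4 knockout, replicate 1 of the first title year, with reduced IL-7, stood above the others in Actg-ps1 (5.746 FPKM).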

How the results depend on the processing

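The rule gave 8 members, 14 with a pseudocount of 0.1, 13 after quantile normalization, both including the same 8, and 6 to 14 with each library left out. For the earlier-year knockout comparison the genes called were 954, and 22 with matched pairs as a replicate block, 451 on OP9-DL4 only, 475 in the first title year only, 270 in the second only and 363 to 1067 with each library left out. For its dependence on IL-7 they were 49, and 28 with no filter, 87 with title date as a block and 9 to 123 with each library left out. For DN2a against DN2b with GSI they were 45, and 1 with no filter, 72 with robust variances (2 of them members), 1 with title period as a block and 0 to 1 with a library left out, where the lone library is taken to vary like the others. For culture day they were 0, and 145 with culture as a block (1 of them a member), and 0 to 13 with each library left out, with 0 to 1 member.

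Differences of members that were not called changed sign as follows. In the knockout comparison Pgam1-ps2 took 0.0334 with a pseudocount of 0.1, 0.97 with title date and 0.63 with matched pairs as a block, 0.85 in the first year and -0.46 to 0.35 with each library left out. Pgk1-rs7 took -0.0485 after quantile normalization, -0.0781 on OP9-DL4, -0.74 in the second year and -0.32 to 0.32 with libraries left out. F2r took 0.56 and Serpinf1 -0.20 in the first year, Actg-ps1 -0.43 in the second, and Mc5r -0.18 on OP9-DL4, -0.21 in the second year and -0.18 to 0.30 with libraries left out. Cox4i2 ranged from -0.54 to 0.0271 with libraries left out, and its IL-7 term from -0.95 to 0.70. For GSI against untreated the left-out ranges were -0.30 to 0.06 for F2r, -0.30 to 0.52 for Actg-ps1 and -0.65 to 0.0372 for Serpinf1. For culture day Pgam1-ps2 took 0.0305 with culture as a block and -0.0471 to 0.032 with libraries left out, Pgk1-rs7 -0.0073 after quantile normalization, and F2r 0.0674 in controls only, a subset added after seeing the data, and -0.0946 to 0.0163 with libraries left out. The cause of these changes was not tested. Blocks changed no other call of a member.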
